A study of Homo sapiens with 12 samples.

Results

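The retinoid genes described here are 10 genes of retinoic acid synthesis, carriage and reception: the retinal dehydrogenases ALDH1A1, ALDH1A2 and ALDH1A3, the cellular retinoic acid binding proteins CRABP1 and CRABP2, the retinoic acid receptors RARA, RARB and RARG, and the retinoid X receptors RXRA and RXRB. They were taken by symbol, as 10 of the 28278 genes in a table of RNA sequencing counts, and the set was chosen by measured values, namely the counts of ALDH1A2 in knockout and unedited cells, around whose loss it was drawn up. The difference between knockout and unedited cells in these 10 genes is therefore given as levels, without a test. All 10 symbols had a row, and 8 passed the filter on low counts; ALDH1A3 and CRABP1 did not. ALDH1A2, ALDH1A1 and RARB passed through the unedited groups alone, having 0, 2 and 2 knockout libraries at the level of the filter where 3 were needed.

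The libraries came from K562, a human erythroleukaemia line. Unedited cells (WT) were compared with cells in which the heme transporter HRG1, encoded by SLC48A1, had been knocked out (HRG1-KO, here KO), and each genotype was left untreated or given sodium butyrate, a histone deacetylase inhibitor used to drive K562 cells along the erythroid lineage. Treated cells received 0.75 mM butyrate 24 h after plating and again 48 h later, and were harvested after a further 6 h; in the design, this corresponds to differentiation day 8. Each of the 4 groups had 3 libraries. Cells were grown in medium with heat-inactivated fetal bovine serum, and no group was given a retinoid according to the labels. How the knockout was made, the number of KO clones and whether replicates were separate cultures are not stated, so the genotype cannot be told apart from differences between clones, and p-values measure only the spread between these libraries, which may be technical.

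Retinol enters cells through carriers such as STRA6, is oxidised to retinal by short-chain dehydrogenases such as RDH10, and retinal is then oxidised irreversibly to retinoic acid by the ALDH1A enzymes. CRABP2 carries retinoic acid to nuclear receptors of the RAR family, which bind DNA as pairs with an RXR partner at repeats of a short core motif, while enzymes of the CYP26 family break retinoic acid down. In blood formation, retinoic acid signalling through RARA is best known for its role in the maturation of myeloid cells.

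The promoters of 2 retinoid genes are shown first because they carry the classical element through which RAR and RXR pairs act, a direct repeat of core sites with a spacer of 5 bases. The search covered the 250 bases upstream of each RefSeq transcription start (GRCh38.p14) on both strands, for any pair of 4 cores in the same orientation, separated by any bases over the spacer. The consensus core is AGGTCA; the first variant allowed was GGGTCA, the next was AGTTCA and the last was GGTTCA. All 10 genes matched the promoter table, with 18 promoters, and among these only 1 of RARB held the repeat. Among promoters of STRA6, DHRS3, RBP5 and CYP26A1, the hit was in CYP26A1. Capitals mark the repeat in the RARB promoter at chr3:25428013-25428262 (plus strand), where it lies 53 to 37 bases before the start, and in the CYP26A1 promoter at chr10:93073643-93073892 (plus strand), where it lies 90 to 74 bases before the start and reads on the opposite strand.
RARB: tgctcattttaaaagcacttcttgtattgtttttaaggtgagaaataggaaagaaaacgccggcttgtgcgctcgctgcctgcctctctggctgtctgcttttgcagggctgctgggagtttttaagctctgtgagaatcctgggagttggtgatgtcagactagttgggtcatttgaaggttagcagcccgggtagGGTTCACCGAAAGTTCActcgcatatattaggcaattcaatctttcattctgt
CYP26A1: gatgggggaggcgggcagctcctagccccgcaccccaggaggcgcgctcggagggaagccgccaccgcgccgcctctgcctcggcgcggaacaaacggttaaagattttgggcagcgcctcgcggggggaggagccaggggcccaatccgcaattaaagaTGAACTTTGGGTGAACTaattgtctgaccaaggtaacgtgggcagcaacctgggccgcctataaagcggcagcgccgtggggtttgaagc
Of 35116 promoters of this length, 26 (0.0740%) held such a repeat. Repeats of the same cores with a spacer of 1 base or 2 bases were found in 34 (0.0968%) and 11 (0.0313%), and in no promoter of the 10 genes. A match describes the letters in this window only.

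The upstream sequences of ALDH1A2 and ALDH1A1 are shown because their transcripts were detected in every WT library and were at or near 0 in untreated KO. Capitals mark CpG dinucleotides, the bases that can be methylated. The outermost ALDH1A2 start, on the minus strand with its promoter at chr15:58065712-58065961, had 33 CpGs in 250 bases, above the 90th percentile of 31 over all promoters (median 11). The other ALDH1A2 start, not shown, with its promoter at chr15:58014024-58014273, had 1 CpG. Which start the cells used was not measured. ALDH1A1, with its promoter at chr9:72953054-72953303 on the minus strand, had 6. Methylation was not measured.
ALDH1A2: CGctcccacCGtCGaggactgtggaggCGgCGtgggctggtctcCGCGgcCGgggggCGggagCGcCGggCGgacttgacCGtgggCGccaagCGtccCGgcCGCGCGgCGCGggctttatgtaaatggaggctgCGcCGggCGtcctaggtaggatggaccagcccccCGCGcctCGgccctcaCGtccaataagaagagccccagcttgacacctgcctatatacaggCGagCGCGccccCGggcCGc
ALDH1A1: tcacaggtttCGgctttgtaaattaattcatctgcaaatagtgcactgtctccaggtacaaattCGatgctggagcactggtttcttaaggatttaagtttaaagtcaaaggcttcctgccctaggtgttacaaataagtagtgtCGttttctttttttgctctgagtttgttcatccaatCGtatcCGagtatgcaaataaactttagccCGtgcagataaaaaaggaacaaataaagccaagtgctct

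Library totals ranged from 19963594 to 30348538 counts. Levels are given as CPM, counts put on a common depth with the TMM factors of edgeR. A gene counted as detected above 3 counts, which is 0.0953 to 0.162 CPM depending on the library. SLC48A1 was lower in every KO library than in every WT library, at 73.7 ± 8.42 and 67.8 ± 13.9 CPM in untreated and butyrate-treated WT and 5.94 ± 2.74 and 8.03 ± 2.04 in untreated and butyrate-treated KO (SD, n = 3). In a principal component analysis, butyrate-treated WT replicate 1 lay among the untreated libraries on the second component (40.9 against 15.3 to 75.6) and butyrate-treated KO replicate 1 at 4.21, while the other treated libraries lay between -84.8 and -74.3. Results on butyrate are therefore also given without the libraries numbered 1. Butyrate-treated WT replicate 1 still had the highest HBG1 and ALAS2 of all WT libraries (11040 and 253.9 CPM). Its COL1A1, at 43.2 CPM, was above untreated WT but below treated replicates 2 and 3 (107.9 and 91.4). Erythroid markers were present in every library, their summed level being 5931 to 12340 CPM in untreated WT, 16360 to 41030 in butyrate-treated WT, 3898 to 6862 in untreated KO and 4899 to 7122 in butyrate-treated KO. In bulk RNA, fewer cells of a type and less RNA per cell cannot be told apart.

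ALDH1A2, the main retinoic acid synthesising enzyme of the early embryo, was an abundant transcript in WT and had no count in KO. Untreated WT held 4077, 5250 and 4667 counts and butyrate-treated WT 5002, 5108 and 5897, while all 6 KO libraries held 0. This was 207.1 ± 44.9 CPM in untreated WT and 221.6 ± 36.1 in butyrate-treated WT (SD, n = 3), and at least 1540-fold and 1993-fold lower in untreated and butyrate-treated KO, computed against the limit of 3 counts per library. The genotypes did not overlap and the WT groups did. With a mean of 214.3 CPM over the 6 WT libraries, ALDH1A2 ranked 751 of 15805 tested genes in WT. Of 9653 genes with 3 counts or fewer in each of the 6 KO libraries, 134 averaged at least 1 CPM in WT, and ALDH1A2 had the highest WT mean among them; the next was SCG3, a secretory granule protein, at 70.4 CPM.

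Butyrate left ALDH1A2 within its replicate spread in WT (log2 change 0.10, SE 0.23, edgeR adjusted p 0.877). Its direction was not stable, since leaving out untreated replicate 3 or treated replicate 1 of WT gave -0.06 and -0.04. In KO both groups stood at 0 counts, so neither a butyrate effect nor an interaction is defined for this gene.

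ALDH1A1, a retinal dehydrogenase widely used as a marker of stem and progenitor cells, was scarce and moved with both variables. Untreated WT held 40, 34 and 46 counts and butyrate-treated WT 116, 242 and 475. The counts of untreated KO were 0, 0 and 1, and those of butyrate-treated KO 17, 4 and 19. The 4 groups had levels of 1.76 ± 0.349, 10.5 ± 4.54, 0.0112 ± 0.0193 and 0.508 ± 0.337 CPM in that order (SD, n = 3). Every treated library was above every untreated library of its genotype, and the KO libraries all lay below those of WT. ALDH1A1 in untreated KO was at least 13.1-fold lower than in untreated WT, and in treated cells the KO minus WT difference was -4.37 on the log2 scale.

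On the log2 scale, ALDH1A1 rose with butyrate in WT by 2.57 ± 0.61 (SE), at an edgeR adjusted p of 0.0489. It was close to the threshold, as 3 of 12 fits leaving out a library passed, with edgeR adjusted p between 0.0187 (without butyrate-treated WT replicate 1) and 0.179 (without butyrate-treated WT replicate 3 or untreated WT replicate 2). Without the libraries numbered 1 it was 3.01 (edgeR adjusted p 0.0117). In KO, ALDH1A1 was at least 3.78-fold higher after butyrate (edgeR adjusted p 0.0246), passing in 8 of 12 fits, although the gene was tested there only because the WT libraries admitted it. The other 4 fits gave edgeR adjusted p of 0.0912, 0.122 and 0.0520 without untreated KO replicate 1, 2 or 3, and 0.0582 without butyrate-treated KO replicate 3. The test of the difference between the butyrate effects in KO and WT gave an edgeR adjusted p of 1.00.

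ALDH1A3, the remaining enzyme of the family, had 0 counts in 10 libraries and 3 counts in replicates 1 and 3 of butyrate-treated KO, at the limit of detection. Summed per kilobase of exon, the 3 ALDH1A genes stood at 48.0 ± 10.3 CPM in untreated WT, 55.5 ± 6.09 in butyrate-treated WT, 0.00529 ± 0.00916 in untreated KO and 0.256 ± 0.173 in butyrate-treated KO (SD, n = 3). ALDH1A2 made up nearly all of the WT sum. The sum was 0 in replicates 1 and 2 of untreated KO and rested on 1 count of ALDH1A1 in replicate 3.

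CRABP2, which delivers retinoic acid to the receptors, rose with butyrate in KO. Counts were 53, 23 and 57 in untreated WT, 76, 270 and 213 in butyrate-treated WT, 6, 9 and 30 in untreated KO and 135, 650 and 660 in butyrate-treated KO. The groups stood at 1.95 ± 0.902, 7.41 ± 3.83, 0.584 ± 0.367 and 16.3 ± 8.76 CPM in the same order (SD, n = 3). Treated libraries lay above untreated libraries in both genotypes. Untreated KO lay below untreated WT without overlap (log2 difference -1.69), whereas the treated groups overlapped (1.14). CRABP1, its relative, had 2 counts in a single untreated WT library and 0 elsewhere.

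The log2 change of CRABP2 with butyrate in KO was 4.76, with an SE of 0.69 (edgeR adjusted p 0.00538). The rise passed in 11 of 12 fits leaving out 1 library, the exception being that without untreated KO replicate 2 (edgeR adjusted p 0.0512), and it was 4.83 without the libraries numbered 1 (edgeR adjusted p 0.000762). In WT the change was 1.93 (SE 0.60, edgeR adjusted p 0.118), which did not pass. Without butyrate-treated WT replicate 1 it was 2.22 (edgeR adjusted p 0.0450), and without all libraries numbered 1 it was 2.58 (edgeR adjusted p 0.00804). The butyrate effect was larger in KO by 2.83 (SE 0.86), with an edgeR unadjusted p of 0.00598 and an adjusted p of 0.726, so a difference between the genotypes was not shown.

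FABP5 also binds retinoic acid and is described as carrying it to a different nuclear receptor, PPARD. FABP5 was higher in KO than in WT, at 9.16 ± 5.60 and 7.26 ± 3.75 CPM in untreated and butyrate-treated WT against 32.1 ± 13.0 and 20.3 ± 1.10 in KO (SD, n = 3). The difference was 1.81 in untreated cells (edgeR adjusted p 0.0148; 9 of the 12 left-out fits passed, and the highest value was 0.0671 without untreated KO replicate 1) and 1.49 in treated cells (edgeR adjusted p 0.0424; 4 such fits passed, and the highest value was 0.132 without butyrate-treated WT replicate 3). Per kilobase of exon, CRABP2 stood at 0.265 ± 0.0590 of FABP5 in untreated WT and 1.52 ± 0.966 in butyrate-treated WT, and at 0.0251 ± 0.0190 and 0.969 ± 0.545 in untreated and butyrate-treated KO (SD, n = 3). The ratio was lowest in untreated KO, all 3 of whose libraries lay below the other 9.

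**Figure D1:**
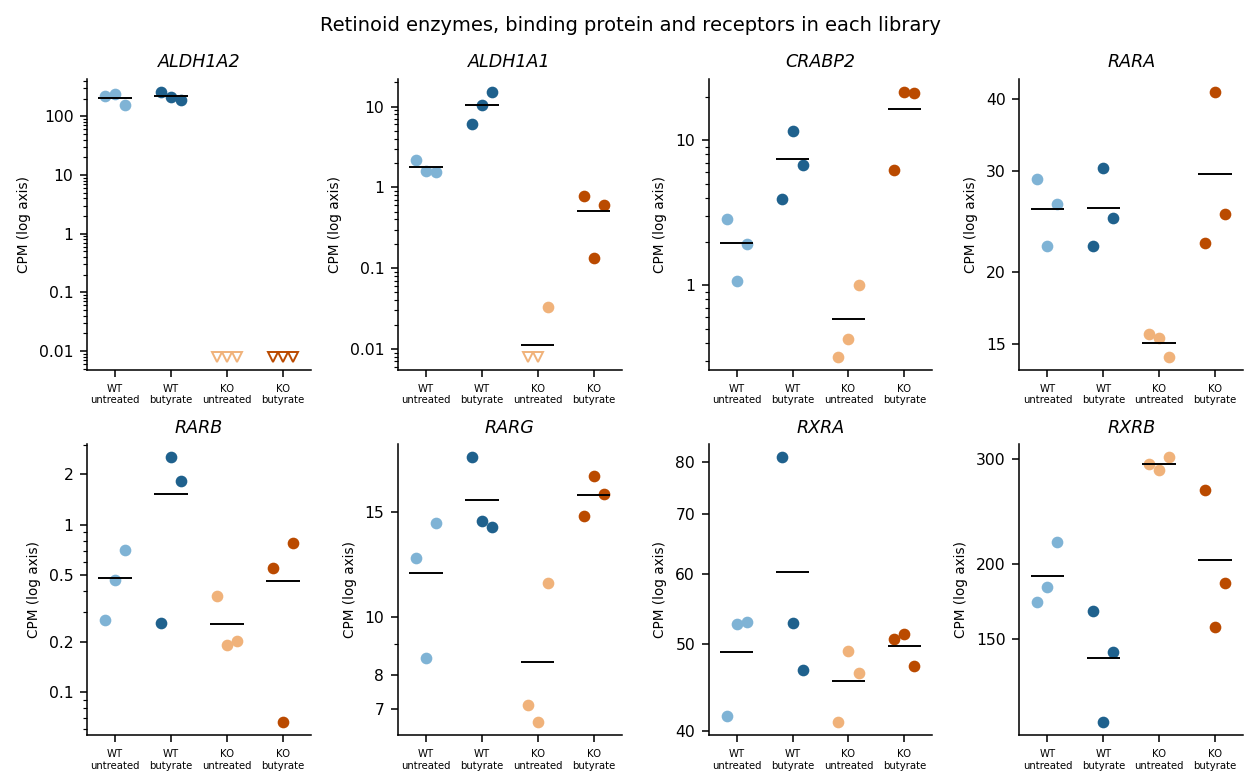
Level of each of 8 retinoid genes (CPM, log axis, scale set per panel) in the 3 libraries of each group, ordered by replicate number within a group. Horizontal lines are group means and open triangles at the bottom stand for 0 counts; ALDH1A2 is at 0 in all 6 KO libraries, and RXRB is highest in untreated KO.

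The retinoic acid receptors differed in abundance and in their response. RARA, the receptor fused to PML in acute promyelocytic leukaemia, held 535, 478 and 780 counts in untreated WT, 429, 712 and 783 in butyrate-treated WT, 292, 324 and 427 in untreated KO and 489, 1243 and 783 in butyrate-treated KO. Its level was 25.8 ± 3.42, 25.8 ± 4.16, 15.1 ± 0.724 and 29.6 ± 10.0 CPM in that order (SD, n = 3). Untreated KO was the low group and overlapped none of the others, with a KO minus WT difference of -0.77 in untreated cells and 0.20 in treated cells. In WT the change of RARA with butyrate was 0.00 (edgeR adjusted p 1.00). In KO the change of 0.97 (SE 0.25) missed the threshold (edgeR adjusted p 0.0558) and passed once replicate number entered as a block (0.94, edgeR adjusted p 0.0245) and without the libraries numbered 1 (1.14, edgeR adjusted p 0.0213). The interaction for RARA was 0.97 (edgeR adjusted p 0.959).

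RARG held 232, 184 and 428 counts in untreated WT, 357, 340 and 446 in butyrate-treated WT, 133, 140 and 341 in untreated KO and 321, 522 and 499 in butyrate-treated KO. Its level was 11.8 ± 2.99, 15.7 ± 2.41, 8.39 ± 2.62 and 16.0 ± 1.25 CPM in that order (SD, n = 3). As for RARA, the butyrate-treated KO libraries lay above all untreated KO libraries, while the WT groups overlapped. The change with butyrate was 0.93 in KO (SE 0.29, edgeR adjusted p 0.1003; under the replicate block 0.97 and 0.0365; 0.86 and 0.12 without the libraries numbered 1) and 0.41 in WT (edgeR adjusted p 0.504). The KO minus WT difference was -0.49 in untreated cells, where the groups overlapped, and 0.03 in treated cells.

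RARB, itself a classical retinoic acid target through the repeat shown above, was barely detected. Counts were 5, 10 and 21 in untreated WT, 5, 59 and 57 in butyrate-treated WT, 7, 4 and 6 in untreated KO and 12, 2 and 24 in butyrate-treated KO. No pair of groups compared was free of overlap. The log2 change with butyrate was 1.65 in WT (SE 0.92, edgeR adjusted p 0.381) and 0.86 in KO (SE 0.96, edgeR adjusted p 0.671). The KO minus WT difference was -0.93 in untreated and -1.72 in treated cells. The span of RARB overlaps 9 other RefSeq genes, among them TOP2B, and those of RARA and ALDH1A2 overlap antisense genes. The use of strand in counting is not stated, so reads could be shared with these neighbours.

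Per kilobase of exon, the 3 receptors summed to 9.80 ± 1.59 CPM in untreated WT, 11.3 ± 0.907 in butyrate-treated WT, 6.16 ± 0.586 in untreated KO and 11.9 ± 2.65 in butyrate-treated KO (SD, n = 3). Untreated KO lay below all other groups without overlap. RARA made up 63.6% ± 4.25, 54.9% ± 5.04, 59.5% ± 7.97 and 58.7% ± 6.49 of the sum in the same order, and RARG 34.9% ± 3.99, 41.0% ± 8.002, 39.2% ± 8.26 and 40.0% ± 5.45 (SD, n = 3). The group means of these shares lay within a few SDs of each other, and the share of RARB was 1.30% to 4.13% by group mean.

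**Figure D2:**
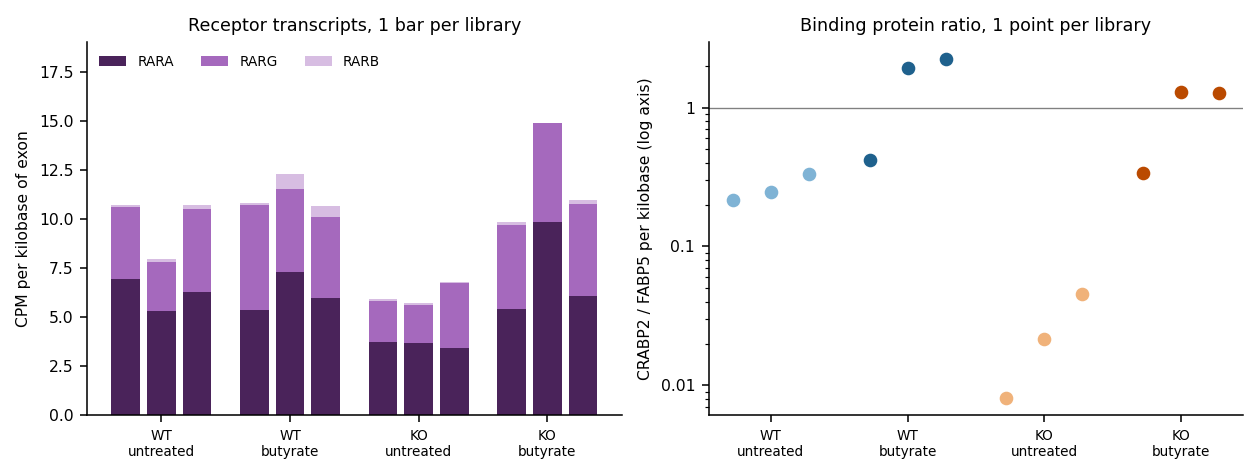
Left, RARA, RARG and RARB transcripts stacked in each library (CPM per kilobase of exon, axis from 0), where the untreated KO bars are the lowest at 5.70 to 6.82. Right, the ratio of CRABP2 to FABP5 per kilobase in each library (log axis), with a grey line at equal levels; untreated KO lies between 0.00805 and 0.0455.

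The RXR genes encode the shared partners of the RAR family and of many other nuclear receptors. RXRB was the more abundant by counts, with 3188, 3949 and 6488 in untreated WT, 3213, 2542 and 4482 in butyrate-treated WT, 5500, 6056 and 9042 in untreated KO and 5814, 4740 and 5766 in butyrate-treated KO. Its level was 191.3 ± 23.8, 139.2 ± 29.2, 294.9 ± 7.17 and 203.2 ± 57.2 CPM in that order (SD, n = 3). Untreated KO stood above untreated WT without overlap (log2 difference 0.62), and the treated groups overlapped (0.55). Treated libraries lay below untreated ones in each genotype. The change with butyrate did not pass in WT (-0.46, SE 0.23, edgeR adjusted p 0.308) or KO (-0.54, SE 0.22, edgeR adjusted p 0.203), while without the libraries numbered 1 it was -0.69 (edgeR adjusted p 0.0583) and -0.80 (edgeR adjusted p 0.0324).

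RXRA held 767, 1136 and 1574 counts in untreated WT, 1562, 1236 and 1472 in butyrate-treated WT, 764, 1033 and 1389 in untreated KO and 1103, 1555 and 1465 in butyrate-treated KO. Its level was 49.1 ± 6.51, 60.2 ± 18.3, 45.5 ± 4.20 and 49.7 ± 2.23 CPM (SD, n = 3), and no pair of groups compared was free of overlap. The highest value, 81.0 CPM, was that of butyrate-treated WT replicate 1. Neither the change with butyrate in WT (0.29, edgeR adjusted p 0.521) nor that in KO (0.13, edgeR adjusted p 0.791) passed, and the former was -0.10 without the libraries numbered 1. The ratio of RXRB to RXRA counts was 3.92 ± 0.383 in untreated WT, 2.39 ± 0.570 in butyrate-treated WT, 6.52 ± 0.668 in untreated KO and 4.09 ± 1.12 in butyrate-treated KO (SD, n = 3). Untreated KO libraries had the highest ratios, all above those of the other groups.

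Levels of different genes were compared per kilobase of exon in untreated WT. RXRB stood at 65.5 ± 8.15 CPM per kilobase, ALDH1A2 at 47.2 ± 10.2, RARA at 6.20 ± 0.821, RARG at 3.45 ± 0.873, CRABP2 at 1.77 ± 0.820, ALDH1A1 at 0.837 ± 0.166 and RARB at 0.149 ± 0.0678 (SD, n = 3). In this order, RXRB and ALDH1A2, RARG and CRABP2, and CRABP2 and ALDH1A1 differed by no more than the sum of their SDs. RXRA, at 26.6 ± 3.53, was left out of the order because its exon model is only 1846 bases long and its value can be too high.

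Across the retinoid genes that could be tested, butyrate called 1 of 8 in WT (ALDH1A1, higher), against 2.35% of all 15805 genes tested, or 1.8% counting higher genes alone. It called 2 of 7 in KO (ALDH1A1, admitted by WT alone, and CRABP2, both higher), against 3.4% of all genes, or 2.8% counting higher genes alone. Without the libraries numbered 1 the counts were 2 and 4, against 11.4% and 13.1% of all genes. The groups did not overlap for 3 of 8 in WT (21.7% of all genes) and 5 of 7 in KO (24.4%). Exact permutation tests of single genes could not go below p = 0.1 with 3 libraries against 3. The median log2 change was 0.35 in WT and 0.93 in KO, beside 0.02 and 0.00 over all genes tested.

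The interaction called 0 of 7 in edgeR's quasi-likelihood test, where 0% of all genes were called. CRABP2 and RARA had an unadjusted p under 0.05, as did 658 of all genes (4.16%). DESeq2 and the fit with the replicate block also called 0 of 7, while calling 86 and 3 genes of the whole table. KO minus WT levels did not overlap for 5 of 8 in untreated cells (42.3% of all genes) and for 2 of 8 in treated cells (33.9% of all genes). This contrast chose the genes, so these counts are given as description.

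**Figure D3:**
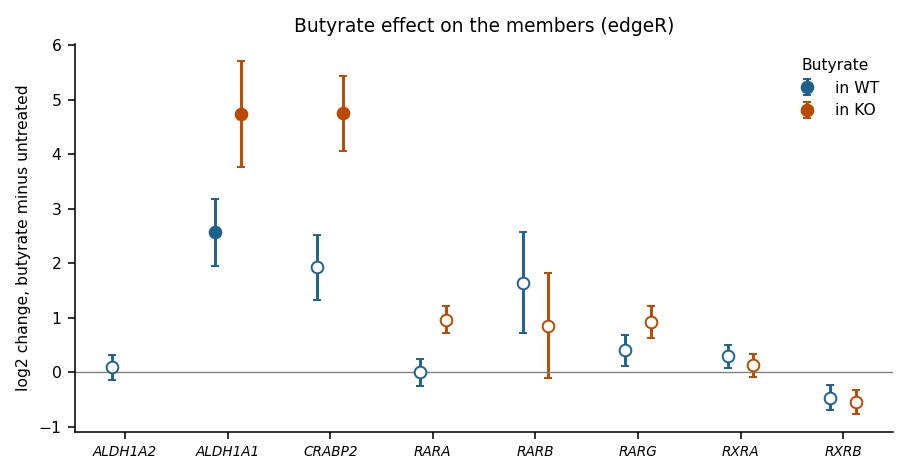
Log2 change with butyrate in WT and KO for the tested retinoid genes; bars are standard errors of the edgeR fit, filled points have an adjusted p under 0.05, and ALDH1A2 has no KO value because all KO libraries are at 0. The filled points are ALDH1A1 in both genotypes (2.57 and 4.74, the latter depending on the prior count) and CRABP2 in KO (4.76).

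Other genes of the pathway were read from 7 lists with 90 distinct genes, of which 63 were tested. In untreated cells 17 differed between the genotypes, 7 higher and 10 lower in KO, against 22.6% of all genes tested. In treated cells 12 differed, 4 higher and 8 lower, against 19% of all genes. These shares are near the background. With the replicate block the counts were 22 and 18, against 33% and 29.2% of all genes. Of the list genes named here, STRA6, PLAAT4 and ALDH1L1 passed the low-count filter through WT alone and CYP26A1 and RARRES1 through KO alone. Each of these was admitted by the genotype in which it was higher, and the counts include those that were called. Some other list genes, not called by genotype, also passed through KO alone. The median log2 difference was -0.03 and -0.06, beside 0.02 and 0.00 over all genes.

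Of the 6 tested genes of uptake, storage and binding, 3 were lower and 1 (FABP5) higher in untreated KO. In butyrate-treated KO, 2 were lower and 1 higher. The lower genes include STRA6, admitted by WT alone, and 22.6% and 19% of all genes were called in these contrasts. Of 12 tested oxidoreductases of retinol and retinal, 2 were lower and 1 higher in untreated KO, and 2 were lower in butyrate-treated KO. STRA6, the retinol carrier, held 93, 50 and 80 counts in untreated WT, 345, 157 and 175 in butyrate-treated WT, 1, 0 and 0 in untreated KO and 0 in every butyrate-treated KO library. It was at least 24.9-fold lower in untreated KO and at least 90.4-fold lower in butyrate-treated KO. No p-value is given because no KO library reached the level of the filter. RDH10, which oxidises retinol to retinal, fell from 69.8 ± 20.3 to 31.7 ± 8.26 CPM in untreated cells and from 51.5 ± 12.3 to 18.9 ± 2.74 in treated cells (SD, n = 3; log2 difference -1.14 and -1.45, edgeR adjusted p 0.00873 and 0.00266). DHRS3, which reduces retinal back to retinol and is induced by retinoic acid in many tissues, fell from 62.3 ± 13.7 to 7.73 ± 3.94 CPM and from 31.3 ± 10.1 to 7.06 ± 0.622 (SD, n = 3; -3.002 and -2.15, edgeR adjusted p 0.000103 and 0.00122). RBP5, a cellular retinol binding protein, fell from 12.6 ± 1.42 to 4.56 ± 0.756 CPM and from 21.3 ± 1.72 to 8.96 ± 1.74 (SD, n = 3; -1.47 and -1.25, edgeR adjusted p 0.00127 and 0.00401). RDH10, DHRS3 and RBP5 passed in each of the 12 fits leaving out 1 library, in both contrasts, and their KO libraries lay below their WT libraries without overlap.

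DGAT1, which can esterify retinol, was lower in untreated KO (59.8 ± 3.17 against 29.3 ± 6.24 CPM, SD, n = 3, log2 difference -1.03, edgeR adjusted p 0.00217), missed the threshold in treated cells (-0.49, edgeR adjusted p 0.0935, and 0.0453 with the block), and was the single gene of the lists called for butyrate in KO (0.89, edgeR adjusted p 0.0288, and 0.141 without untreated KO replicate 2). The oxidoreductase DHRS4 was higher in untreated KO (1.58, edgeR adjusted p 0.0300, and 0.124 without untreated KO replicate 3). RBP4 had 0 counts in every library, and LRAT, the esterifying enzyme of retinol stores, averaged under 0.1 CPM in each group.

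CYP26A1, the retinoic acid hydroxylase whose promoter is shown above, was at 0.0827 ± 0.106 and 0.294 ± 0.231 CPM in untreated and butyrate-treated WT and at 1.23 ± 1.44 and 2.26 ± 1.00 in untreated and butyrate-treated KO (SD, n = 3). The treated groups did not overlap, while untreated KO replicate 1 (0.0535 CPM) lay within the WT range. The KO minus WT log2 difference was 3.71 (SE 1.27) in untreated and 2.90 (SE 1.16) in treated cells. No p-value is given for CYP26A1 because it entered the test through KO alone. CYP26B1 and CYP26C1 did not pass the filter.

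Of 13 tested textbook targets of retinoic acid, 4 were called in untreated cells, 1 higher and 3 lower in KO, and 4 in treated cells, again 1 higher and 3 lower. STRA6 and DHRS3 are among the lower genes in both, and PLAAT4 in treated cells. STRA6 and PLAAT4 were admitted by WT alone, and 22.6% and 19% of all genes were called in these contrasts. TGM2, a transglutaminase induced by retinoic acid in myeloid cells, was lower in untreated KO (131 ± 23.8 against 8.49 ± 7.50 CPM, SD, n = 3, log2 difference -3.93, edgeR adjusted p 0.00449) and did not pass in treated cells (-1.63, edgeR adjusted p 0.157) except with the replicate block (-1.83, edgeR adjusted p 0.00857). PLAAT4, a retinoid-induced phospholipase, held 39, 26 and 25 counts in butyrate-treated WT and 0, 3 and 4 in butyrate-treated KO, with no KO library at the level of the filter. BHLHE40, a transcriptional repressor, was higher in both (1.12 and 1.23, edgeR adjusted p 0.00610 and 0.00425). RARRES1 held 5, 0 and 2 counts in untreated WT and 20, 5 and 14 in untreated KO, with no WT library at the level of the filter. With the block, its log2 difference in untreated cells was 2.54. No p-value is given for it because it entered through KO alone. The median log2 difference of the targets was -0.13 in untreated and -0.42 in treated cells.

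Among 10 tested nuclear receptors that share RXR as a partner, the thyroid hormone receptor THRB was higher in KO in both settings (1.97 and 2.15, edgeR adjusted p 0.000839 and 0.000634). In untreated cells the orphan receptor NR4A1 was higher (1.73, edgeR adjusted p 0.0103, and 0.0516 without untreated KO replicate 2) and the vitamin D receptor VDR lower (8.08 ± 1.21 against 0.275 ± 0.263 CPM, SD, n = 3, log2 difference -4.82, edgeR adjusted p 0.0242, and 0.0768 without untreated KO replicate 1). Of 13 coregulators, HDAC3, the deacetylase of the NCOR complexes that silence unliganded receptors, was lower in KO (-0.58 and -0.73, edgeR adjusted p 0.0351 and 0.0133). It passed in 6 and 10 of 12 fits, with up to 0.109 without untreated WT replicate 1 and 0.0614 without butyrate-treated WT replicate 2. TBL1XR1, another subunit of these complexes, was higher in untreated KO (0.65, edgeR adjusted p 0.0338, and 0.144 without untreated KO replicate 3) and, with the block alone, in treated KO (0.58, edgeR adjusted p 0.0429). The block also called the orphan receptor NR4A2, lower in KO in untreated and treated cells (-1.14 and -1.01, edgeR adjusted p 0.0134 and 0.0255), and the oxysterol receptor NR1H3, higher in treated cells (0.78, edgeR adjusted p 0.0429).

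Loss in KO was not general to aldehyde dehydrogenases outside the ALDH1A group. Of 12 tested, ALDH1L1, an enzyme of folate metabolism, was at 0 counts in all KO libraries. It was at least 58.7-fold and 18.2-fold lower, given without a p-value because it entered through WT alone. ALDH4A1, of proline breakdown, was lower (-2.23 and -1.73, edgeR adjusted p 4.67e-05 and 0.000353). ALDH5A1, which oxidises succinic semialdehyde, was higher (2.35 and 2.55, edgeR adjusted p 0.000157 and 0.00013). The other 9 did not pass in either setting, apart from ALDH16A1 in untreated cells with the replicate block (-0.57, edgeR adjusted p 0.0465).

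**Figure D4:**
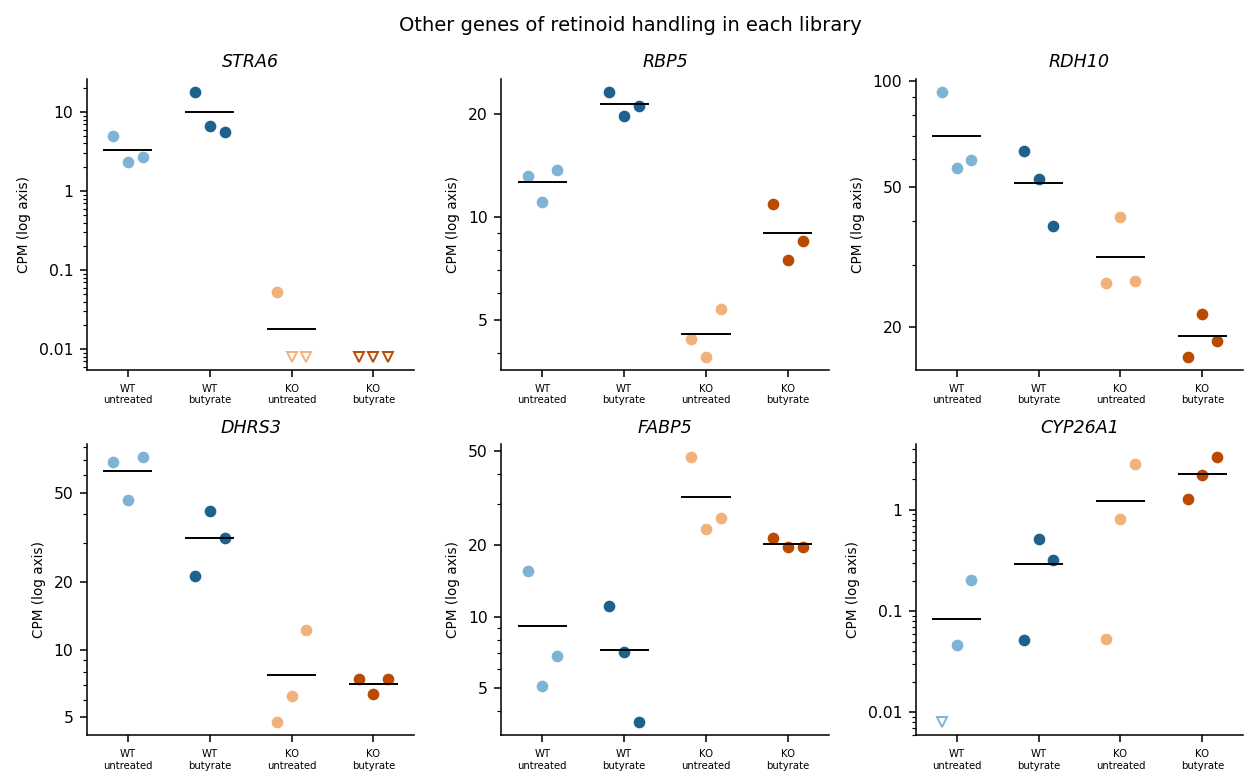
Level of 6 other retinoid genes (CPM, log axis, scale set per panel) in the 3 libraries of each group, with group means as lines and open triangles for 0 counts. STRA6, RBP5, RDH10 and DHRS3 are lower in every KO library than in every WT library of the same treatment, and FABP5 is higher.

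Calls for butyrate in the pathway lists are given beside the share of all genes called by the same method. In WT, edgeR called 0 of 63 (2.35% of all genes), with 7 at an unadjusted p under 0.05, and DESeq2 called 4 (8.42%). In KO edgeR called 1 (3.4%), with 11 at an unadjusted p under 0.05, and DESeq2 called 5 (9.73%). These counts are near the shares of all genes. The replicate block called 8.61% of all genes in WT and 11.7% in KO. With the replicate block, the genes called in WT included NR4A1, which was higher (1.40, edgeR adjusted p 0.00746). In KO the block called RBP5, AKR1C3, VDR and TGM2, higher, and ALDH1L2, lower, beside DGAT1 (edgeR adjusted p 0.0187, 0.0327, 0.0302, 0.00484 and 0.0200 for the added genes in that order). Without the libraries numbered 1 the counts were 7 and 11, still against 11.4% and 13.1% of all genes. Of 24 genes with a promoter holding the repeat shown above, 10 were tested and 0 were called for butyrate in either genotype by edgeR or DESeq2, with 0 and 1 at an unadjusted edgeR p under 0.05.

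ALDH1A2 spans chr15:57953429-58065711 in the RefSeq annotation of GRCh38.p14. Its 4 protein-coding neighbours on each side were read to see how far the loss reached. On the lower-coordinate side, MYZAP and GCOM1 had 0 counts in every library and CGNL1 averaged under 0.1 CPM in every group. POLR2M, whose reads can be shared with the overlapping GCOM1, differed by -0.74 and -1.34 in untreated and treated cells (edgeR adjusted p 0.526 and 0.274). On the other side, AQP9, the nearest neighbour at a gap of 72.5 kb, had 0 counts in KO and at most 0.509 CPM in WT. LIPC (-0.61 and -0.34), the metalloprotease ADAM10 (-0.24 and -0.15) and MINDY2 (-0.24 and -0.53) had edgeR adjusted p between 0.123 and 0.836, and of these only MINDY2 in treated cells was free of overlap, with KO lower. ADAM10, 523.1 kb away, stood at 105.1 ± 11.9 CPM in untreated WT and 89.1 ± 8.24 in untreated KO (SD, n = 3). None of the 4 tested neighbours differed past the threshold, against 22.6% and 19% of all genes, and their gaps to ALDH1A2 ran from 235.9 to 705.6 kb. Of these, POLR2M and LIPC were low, with group means of 0.234 to 1.27 and 0.354 to 2.82 CPM. Their lack of a call therefore says little. Only ADAM10 and MINDY2, at gaps of 523.1 and 705.6 kb, were well expressed in both genotypes. The nearer AQP9 was too low in WT for a loss to be measured.

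**Figure D5:**
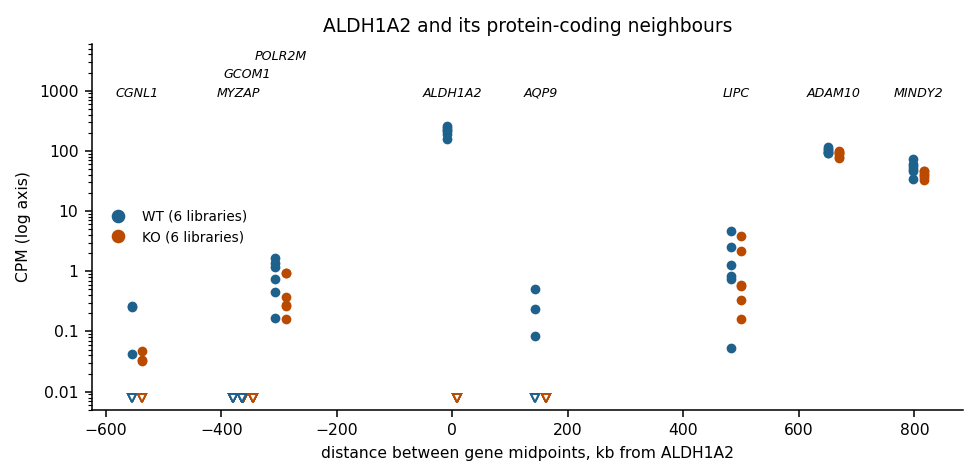
Level of ALDH1A2 and its 8 nearest protein-coding genes (CPM, log axis) against the distance between gene midpoints in kb, with each of the 6 WT and 6 KO libraries as a point and open triangles for 0 counts. ALDH1A2 is at 0 in all KO libraries, whereas ADAM10 and MINDY2 have counts in every library of both genotypes.

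Among the genes whose log2 CPM followed ALDH1A2 most closely over the 12 libraries were SMOC2 (Pearson r 0.9985), AKR1B1 (0.9984), AK3 (0.998) and GS1-600G8.3 (0.9975). They encode a matricellular protein, aldose reductase, an adenylate kinase of mitochondria and, for the last, an RNA annotated as antisense. These 4 had 0 counts in all 6 KO libraries, AK3 being the most abundant of them in WT at 73.1 ± 8.19 and 51.1 ± 8.11 CPM in untreated and treated cells (SD, n = 3). The libraries fall into WT and KO clusters on this measure, and 265 genes had an r above 0.95 and 309 an r below -0.95, so the likeness is that of a step between genotypes.

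Markers of other lineages moved alongside these genes. The summed level of 5 megakaryocyte markers was 26.2 to 49.5 CPM in untreated WT, 95.0 to 208.4 in butyrate-treated WT, 4.87 to 19.3 in untreated KO and 50.7 to 64.9 in butyrate-treated KO, with PF4 and GP1BB at 0 throughout. That of 5 myeloid markers was 13.4 to 18.5, 20.8 to 32.4, 21.1 to 86.7 and 63.5 to 133.7 CPM in the same order. That of 5 lymphoid markers was 14.6 to 22.2, 11.3 to 24.2, 4.01 to 5.28 and 7.76 to 11.1 CPM, with MS4A1 and NCAM1 at 0 throughout. The stromal list, at 2.17 to 5.11, 44.0 to 109.6, 2.36 to 5.12 and 69.1 to 157.1 CPM, rose with butyrate mainly through COL1A1, called in both genotypes. The part of these lineage programmes in the levels of CRABP2, ALDH1A1 and the receptors was not tested.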

How the data were processed

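The authors deposited whole-number counts per gene for all 12 libraries, with 0 columns unused and 0 rows without a gene name. FastQC 0.12.1, STAR 2.7.11b and the build hg38 are named in the submitters' processing notes; the counting tool, annotation and use of strand are not given in the sources used here. The deposited counts went into edgeR 4.0.16 under R 4.3.3 unchanged: filterByExpr with a minimum count of 10 kept 15805 genes, libraries were scaled by TMM, and quasi-likelihood F-tests on a mean per group over all libraries had their p-values adjusted (Benjamini-Hochberg, every tested gene; threshold 0.05, biological coefficient of variation 0.384). The procedure was tested on simulated data. Replicates were not duplicates (chi-square per degree of freedom at least 37.2).

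Same-numbered libraries deviated together in every contrast. Their correlation was 0.195 to 0.409 and 0.147 to 0.468 for butyrate in WT and KO. For genotype it was 0.210 to 0.361 and 0.315 to 0.595 in untreated and treated cells. Differently numbered libraries reached 0.187, 0.123, 0.0692 and 0.343 in the same order, the last being above the lowest same-numbered value of its contrast. The main fit held no term for replicate number, so its p-values and counts ignore any pairing. A fit with the numbers, taken from the sample titles, as a block was run beside it. Its values are given for the genes and contrasts described here where it changes a call, except in genes given without a p-value. The whole-table counts for butyrate were 372 and 537 in WT and KO, and 1361 and 1852 with the replicate block. Alternatives were DESeq2 1.42.0, other scalings and filters, the groups compared alone, and libraries left out. Named were the 10 retinoid genes, SLC48A1, list genes past the threshold (at most 4 per list and contrast), 4 neighbours of ALDH1A2 on each side and the 5 genes most correlated with it, of which 1 is not reported here; CYP26A1, RBP4 and LRAT were chosen after their values were seen. The retinoid genes and all lists were chosen with earlier results of these data known. Exon lengths came from GENCODE release 29 and promoters from RefSeq. Detection limits cover counting error only.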

Additional observations from a re-analysis of the deposited data

How the results depend on the processing

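Of the retinoid genes, 1 was called for butyrate in WT; the count was 0 with library size alone or with only the groups compared, 2 with DESeq2, and 0 to 2 when libraries were left out. For butyrate in KO the count of 2 became 4 with DESeq2 and with the replicate block, 1 with only the groups compared, in which ALDH1A1 did not pass the filter, and 0 to 4 when libraries were left out, the 0 being without untreated KO replicate 2. Over all genes tested, butyrate in WT called 2.35% in the main fit, 1.81% with library size alone, 0.435% with only the groups compared and 8.42% with DESeq2. In KO the shares were 3.4% in the main fit, 3.28% with only the groups compared, 9.73% with DESeq2 and 11.7% with the replicate block. The cause of the shifts was not tested. The interaction count was 0 under every alternative. The pathway genes called by genotype stayed within 1.5 times of 17 and 12. For butyrate and the interaction, the replicate block changed the call of no retinoid gene other than RARA and RARG in KO.

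Small changes turned sign. For butyrate in WT, ALDH1A2 ranged from -0.064 to 0.23 over the fits leaving out libraries, RARA from -0.13 to 0.18 and RXRA from -0.10 to 0.44, and RARA was -0.0023 with no filter and -0.021 with the replicate block. DHRS3 in KO ranged from -0.45 to 0.37. Interactions ranged from -0.31 to 0.13 for RXRA, from -0.32 to 0.087 for RXRB (0.047 with library size alone) and from -2.52 to 0.70 for CYP26A1. Over the whole table, 1884 and 2164 genes were called for butyrate in WT and KO without the libraries numbered 1, and 43 and 48 in the lowest fits leaving out 1 library. Depth limits ALDH1A3, CRABP1 and RARB, whose counts were 0 to 59 per library.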
